A study of Mus musculus with 7 samples.

Results

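Complement components and regulators were examined in whole lung of mice lacking Scgb3a2, a small secreted protein of airway epithelial cells. The 34 genes were chosen by symbol: the C1 subunits and the other classical pathway proteins, the lectin pathway proteases Masp1 and Masp2, C3 and the alternative pathway factors, the terminal components, the complement receptors and the regulators. Of the 34, 32 were found among the 28828 genes counted, and C8b and C9 were not analysed here. The knockout group held 3 libraries (KO3, KO4 and KO5) and the wild type group 4 libraries (WT2, WT3, WT4 and WT6), all from lung of the C57BL/6 strain and all of total RNA. Sex, age, litter, batch and the targeting strategy are absent from the labels. Since nothing there ties a library to a separate mouse, the p-values below cover variation among libraries, which may be partly technical.

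Complement is a cascade of serum and tissue proteins in which proteases cleave the next member in turn. C1q bound to antibody, lectins bound to sugars, or the slow self-activation of C3 start it, and all routes meet at the cleavage of C3 and C5, which releases the small attractant peptides C3a and C5a and leads to the membrane attack complex. The liver makes most of the circulating proteins, while macrophages, epithelial cells and fibroblasts make several of them locally, and surface and soluble regulators keep the cascade off host cells.

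The libraries held 13071262 to 16480006 counts each. By these unscaled totals 3 counts, taken here as the floor for reading low levels, corresponded to 0.182 to 0.229 CPM. No value was raised to this floor. CPM is the read count normalised to library size, here scaled by edgeR's trimmed mean method, and per-length levels divide them by the exonic length in kilobases. Scgb3a2 itself had 1.28, 1.21 and 2.68 CPM in KO libraries, against 253, 266, 195 and 293 CPM in WT libraries. The groups lay far apart, with a log2 fold change of -7.20 ± 0.27 (SE, adjusted p = 8.06e-07 by edgeR), and an exact 2-sided permutation test gave p = 0.0286, the smallest that 3 against 4 libraries allow. The 10 lung markers were present in every library: surfactant protein C (Sftpc) lay between 5897 and 8559 CPM in KO and between 6836 and 8771 CPM in WT, and the liver marker albumin had 5, 8 and 7 counts in KO and 4, 5, 26 and 13 counts in WT. The Y-linked gene Ddx3y was detected in all 7, at 101 to 116 CPM in KO and 106 to 133 CPM in WT. Xist, the X-inactivation transcript, was low in all 7, at 10.4 to 11.7 CPM in KO and 5.62 to 7.70 CPM in WT (unadjusted p = 0.00068, adjusted p = 0.503 by edgeR). Libraries KO5 and WT6 stood apart from the other 5 on the first principal component, which held 37.5% of the variance.

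No complement gene passed the test across genes. At an adjusted p under 0.05 edgeR called 0 of the 30 complement genes that passed the low-count filter, where it called 7 of 19832 genes (0.0353%), 5 higher in KO (0.0252%) and 2 lower in KO (0.0101%). The adjusted p was 0.9998 for each of the 30. DESeq2 also called 0 of the complement genes and called 0.224% of the genes it tested. At an unadjusted p under 0.05 there was 1 complement gene, C3, higher in KO, by either tool, beside 2.87% of all genes by edgeR (1.82% higher in KO and 1.05% lower in KO). The median log2 fold change, KO over WT, was 0.02 over the 30 genes and -0.0068 over all genes. It was positive in 18 and negative in 12 of the 30, a positive share of 60% beside 48.0% of all genes. In 27 of the 30 (90.0%, beside 81.2% of all genes) the 95% interval of the fold change lay within a 2-fold change in either direction, and the 3 with wider intervals were Cfd, Masp2 and Cfi. In these bulk libraries fewer cells of a type and less RNA per cell cannot be told apart.

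**Figure D1:**
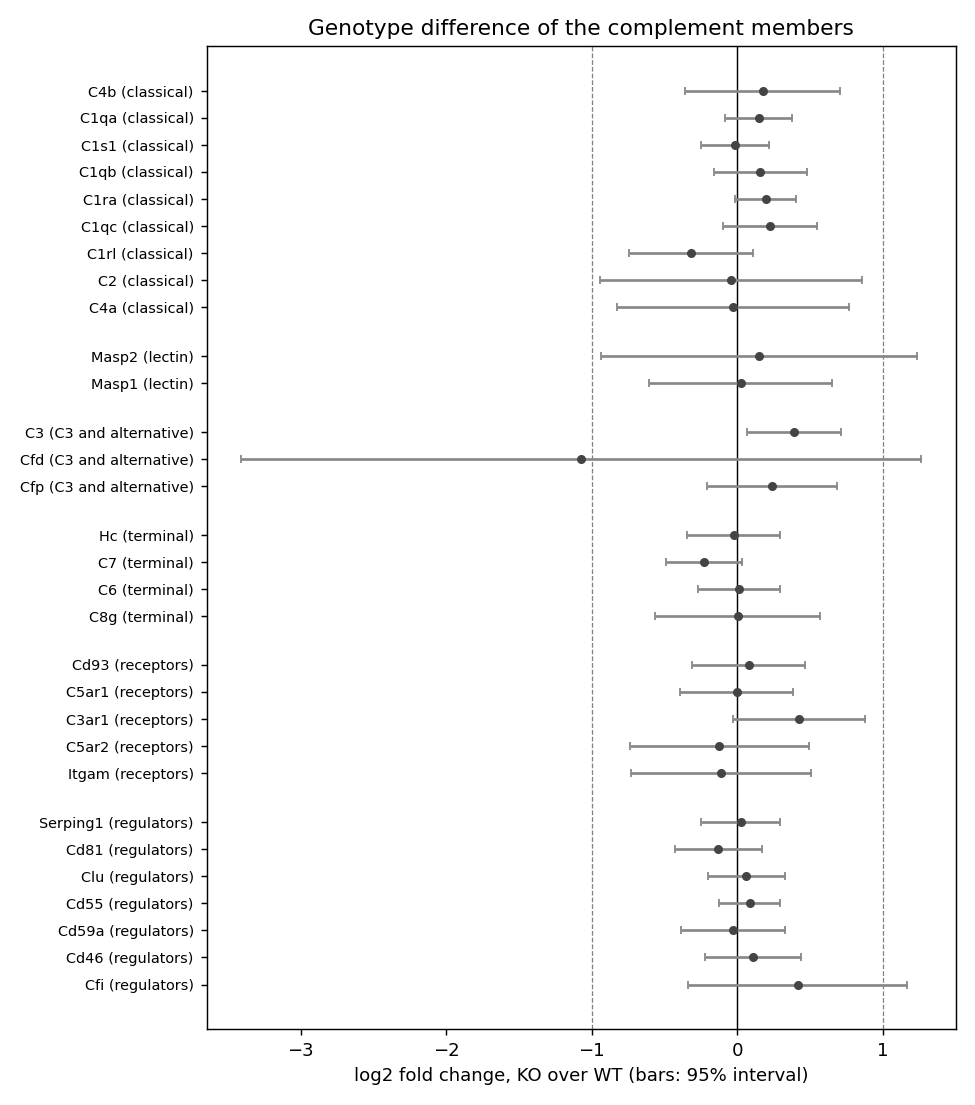
Log2 fold change, KO over WT, of the 30 complement genes kept by the low-count filter, grouped by role; points are edgeR estimates and bars are 95% intervals. The interval of C3 (0.07 to 0.71) lies above 0, that of Cfd (-3.41 to 1.27) is the widest, and no gene passed the adjusted threshold.

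Sequences are shown where they bear on what the counts can resolve. C4a and C4b, the paired fourth-component genes of the mouse major histocompatibility region on chromosome 17, are near copies: of 5367 aligned transcript positions, 5160 (96.1%) were identical. Windows of 60 bases were searched only without gaps, within a single exon of each gene and in the coding part of C4b. Among these, the window with the most differences had 13. Both stretches are read 5′ to 3′ on the minus strand of GRCm38, C4b at chr17:34735430-34735489 and C4a at chr17:34816086-34816145, and capitals mark the bases that differ.
C4b: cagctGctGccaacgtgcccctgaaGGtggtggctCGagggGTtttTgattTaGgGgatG
C4a: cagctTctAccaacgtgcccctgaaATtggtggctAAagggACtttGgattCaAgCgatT
Stretches like this tell the genes apart, while 34.6% of the 50-base stretches of C4b transcripts also occur in C4a and 30.6% of those of C4a also occur in C4b.

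Promoter sequence, the 250 bases before the RefSeq start in GRCm38.p6, is shown for C3, the gene at which all routes meet, and for 2 of the C1q chains, which are transcribed side by side. Capitals mark letters that match 1 of 5 motifs searched on both strands: the C/EBP type (TTGCNNAA), the PU.1 type (GAGGAA), the core promoter motif TATAAA, the NF-kB type and the interferon-response type. All 3 lie on the minus strand, C3 at chr17:57228137-57228386, C1qb at chr4:136886201-136886450 and C1qc at chr4:136892915-136893164. The GENCODE start of C1qc, at chr4:136893065, falls within its window, so by that annotation part of the window lies inside the gene.
C3: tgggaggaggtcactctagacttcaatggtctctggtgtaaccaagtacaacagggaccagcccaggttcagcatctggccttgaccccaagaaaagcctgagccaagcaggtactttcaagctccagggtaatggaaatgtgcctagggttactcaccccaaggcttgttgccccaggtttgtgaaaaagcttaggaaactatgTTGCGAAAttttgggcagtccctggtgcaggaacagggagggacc
C1qb: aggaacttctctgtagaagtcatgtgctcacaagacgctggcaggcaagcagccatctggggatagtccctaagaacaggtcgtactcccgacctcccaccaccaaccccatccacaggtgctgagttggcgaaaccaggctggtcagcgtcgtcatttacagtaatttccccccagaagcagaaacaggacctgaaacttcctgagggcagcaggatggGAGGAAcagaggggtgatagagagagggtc
C1qc: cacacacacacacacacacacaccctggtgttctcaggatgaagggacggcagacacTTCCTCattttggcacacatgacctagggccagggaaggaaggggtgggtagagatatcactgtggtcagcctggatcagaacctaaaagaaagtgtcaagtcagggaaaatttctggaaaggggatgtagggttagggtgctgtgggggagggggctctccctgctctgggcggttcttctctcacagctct
The capitals are a TTGCNNAA match in C3, GAGGAA in C1qb and its reverse complement in C1qc. Such a TTGCNNAA match occurs in 9.6% of 32851 mouse promoters of this length and a GAGGAA match in 23.3%, so the matches describe the letters of these windows only.

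The complement genes together took overlapping shares of the libraries in the 2 genotypes, 0.466%, 0.510% and 0.479% of counts in KO and 0.418%, 0.457%, 0.473% and 0.459% in WT. Cd93, C3, Hc and Serping1 held 66.6% to 75.3% of those counts. Per length, the highest mean levels in KO and WT were those of Cd93 (211 and 199 CPM per kb), C3 (189 and 144), Serping1 (136 and 133), Hc (131 and 133) and C7 (96.8 and 113). The lectin proteases and several receptors lay near the other end, with Masp2 at 0.239 CPM per kb in KO and 0.212 in WT.

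**Figure D2:**
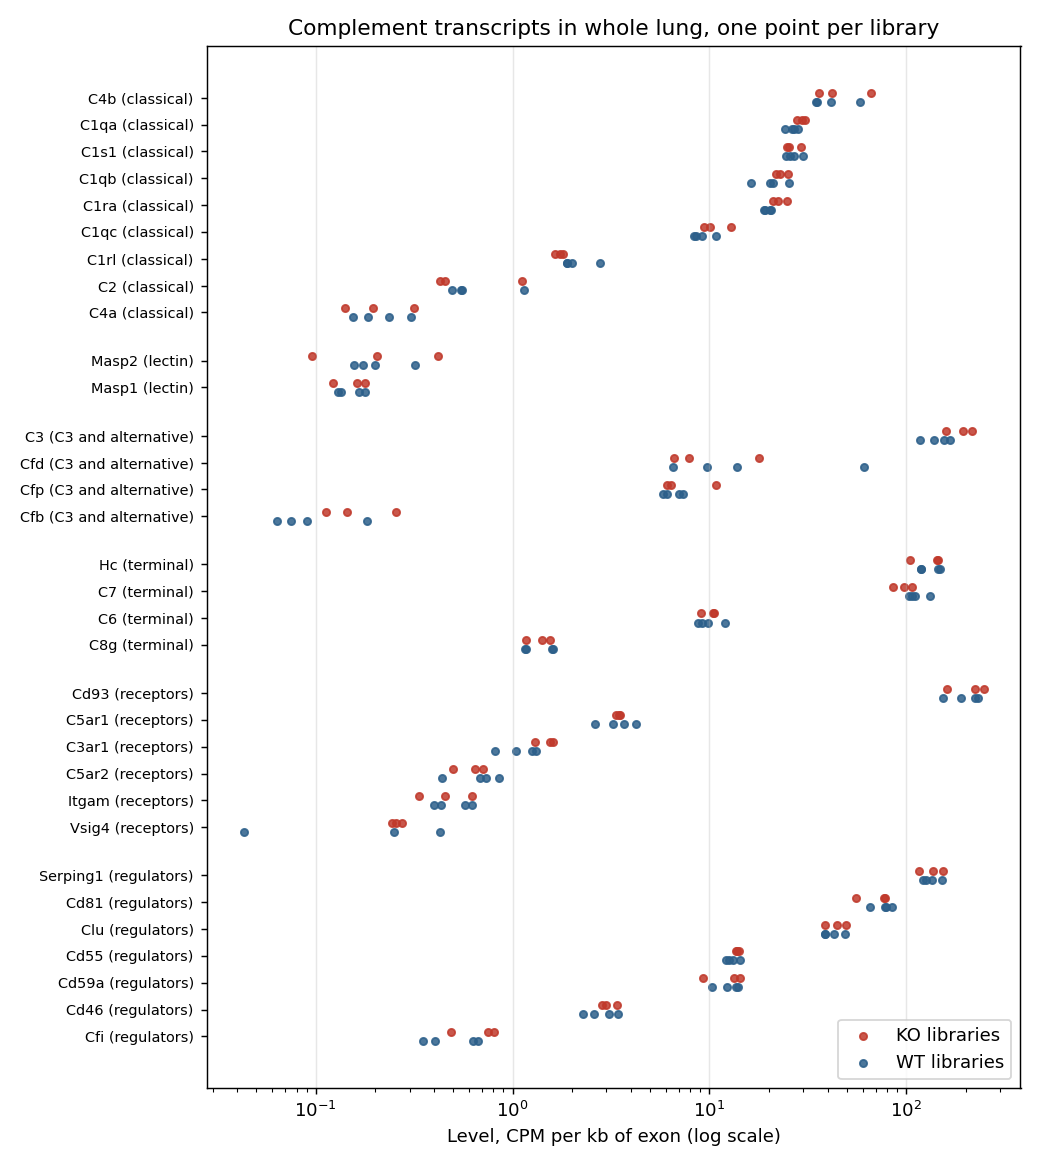
Normalised level per length (CPM per kb of exon, log axis) of the 32 complement genes counted, in each KO and WT library, grouped by role. Levels span Cd93 at the top to genes near the floor such as Cfb, and KO and WT points overlap for most genes; the WT2 value of Vsig4, a count of 0, is not drawn.

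In the classical pathway 9 genes passed the filter, 5 with a positive and 4 with a negative fold change, and the median log2 fold change was 0.15. C1q, the recognition subunit, is built of A, B and C chains whose genes lie together on chromosome 4 (C1qb at chr4:136880129-136886187, C1qc at chr4:136889804-136893065 and C1qa at chr4:136895917-136898803, GRCm38), and macrophages are its main source. C1qa had 31.8, 30.7 and 28.8 CPM in KO libraries, against 27.2, 28.1, 29.3 and 25.3 CPM in WT libraries. The lowest KO library lay below the highest WT library, and the difference did not pass the test (log2 fold change 0.15 ± 0.10 SE, unadjusted p = 0.184 by edgeR). C1qc had 18.1, 19.4 and 25 CPM in KO, against 16.1, 16.5, 20.9 and 17.8 CPM in WT. The groups overlapped through WT4, with a log2 fold change of 0.23 ± 0.15 (unadjusted p = 0.152 by edgeR) that was 0.08 without KO5. C1qb averaged 25.2 ± 1.84 CPM in KO and 22.6 ± 4.02 CPM in WT (SD, n = 3 and 4), with a log2 fold change of 0.16 ± 0.15, or 0.06 without WT6. The summed level of 10 interstitial macrophage markers, all detected, was 981 to 1174 CPM in KO and 947 to 1149 CPM in WT, and its part in the C1q values was not tested.

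C1r and C1s are the proteases that C1q carries, and their genes lie within a cluster on chromosome 6 (C1rl at chr6:124493113-124510643, C1ra at chr6:124512405-124523443 and C1s1 at chr6:124530345-124542359). C1ra, which encodes C1r, had 63.1, 66.1 and 73.6 CPM in KO libraries, against 56.6, 57.1, 60.8 and 61.5 CPM in WT libraries. Every KO library lay above every WT library, as was so for 2.11% of all genes, yet the log2 fold change of 0.20 ± 0.10 (95% interval -0.02 to 0.41) did not pass the test (unadjusted p = 0.0667 by edgeR). C1rl, the neighbouring gene for a C1r-like protease, had 5.41, 5.22 and 4.92 CPM in KO, against 8.38, 5.68, 5.70 and 6.05 CPM in WT. Here every KO library lay below every WT library (1.61% of all genes), while WT2 stood above the other 3 WT libraries, and the log2 fold change of -0.32 ± 0.19 (unadjusted p = 0.128 by edgeR) was -0.16 without WT2. These neighbours were the only complement genes of the 30 whose groups did not overlap, as was so, in either direction, for 3.72% of all genes. C1s1, for C1s, averaged 82.6 ± 7.65 CPM in KO and 83.5 ± 7.55 CPM in WT (SD, n = 3 and 4), a log2 fold change of -0.02 ± 0.11. Of the 50-base stretches of C1ra transcripts 50.8% occur in transcripts of another gene, mostly the near copy C1rb, which was not analysed here. For C1s1 that share was 35.1%, and its near copy C1s2 had 0, 1 and 2 counts in KO and 6, 4, 0 and 4 counts in WT.

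C4, cleaved by C1s and by the lectin proteases, was represented almost entirely by C4b. C4b, the highest classical pathway gene per length, had 205, 240.0 and 375 CPM in KO libraries, against 199, 201, 237 and 331 CPM in WT libraries. KO5 and WT6 were the highest of their groups, the groups overlapped, and the log2 fold change was 0.18 ± 0.24 (unadjusted p = 0.474 by edgeR), or -0.12 without KO5. C4a, which the annotations describe as a processed transcript and a transcribed pseudogene, lay at 0.217 CPM per kb in KO and 0.221 in WT, against 48.0 and 42.5 CPM per kb for C4b. Since the genes share the stretches given above, and no source used here says how reads matching both were counted, the small C4a counts of 13, 19 and 27 in KO and 19, 23, 13 and 27 in WT are uncertain. C2, the protease that joins C4b in the classical convertase, had 1.65 to 4.34 CPM in KO and 1.92 to 4.43 CPM in WT, again with KO5 and WT6 highest, and 42.8% of its exonic bases also lie in exons of the annotated gene Gm20547.

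The lectin proteases were among the least abundant complement transcripts per length. Masp2, the protease that cleaves C4 and C2 once lectins bind, had 0.676, 0.318 and 1.38 CPM in KO libraries, against 0.663, 0.575, 0.518 and 1.05 CPM in WT libraries. KO4 was lowest and KO5 and WT6 were highest, and the 95% interval of the log2 fold change, -0.94 to 1.23 around 0.15, allows about a 2-fold change either way. It turned to -0.49 without KO5 and to -0.25 without KO5 and WT6 together, and 54.9% of the exonic bases of Masp2 overlap those of Tardbp on the opposite strand. Masp1, for the partner protease, had 1.21 to 1.76 CPM in KO and 1.28 to 1.76 CPM in WT.

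C3 was the complement gene with the smallest p. It lies at chr17:57203970-57228136 on the minus strand, and it had 817, 995 and 1111 CPM in KO libraries, against 607, 708, 801 and 857 CPM in WT libraries. KO4 and KO5 lay above every WT library, and KO3 lay between WT4 and WT6. The means were 974 ± 148 CPM in KO and 743 ± 109 CPM in WT (SD, n = 3 and 4). The log2 fold change was 0.39 ± 0.15 (95% interval 0.07 to 0.71), with an unadjusted p = 0.0221 and an adjusted p = 0.9998 by edgeR, so that C3 did not pass. The fold change was positive under all 15 alternative settings, which reuse the same libraries, and lay between 0.26 and 0.50. Its adjusted p was 0.383 or more in all of them, and its unadjusted p was under 0.05 in 11. The unadjusted p by edgeR was 0.0618 without KO4, 0.0784 without KO5, 0.062 without WT2 and 0.0556 without WT3.

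**Figure D3:**
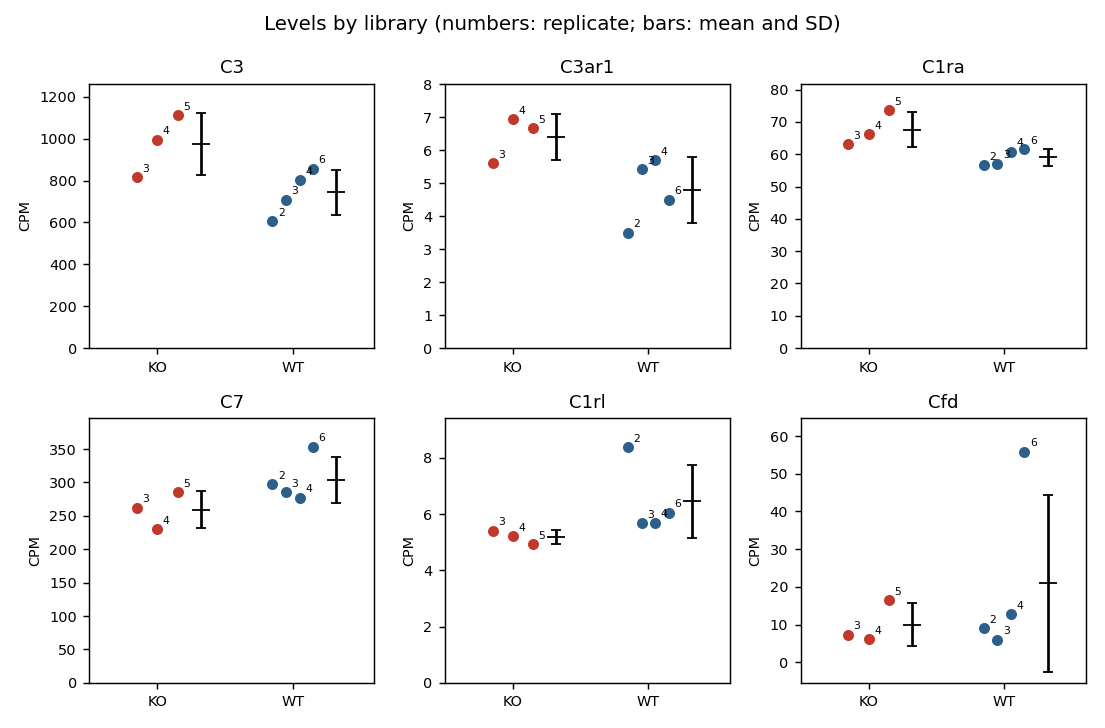
Normalised level (CPM, linear axes) of C3, C3ar1, C1ra, C7, C1rl and Cfd in each KO and WT library; numbered points are libraries and bars are group means with SD (n = 3 and 4). C1ra and C1rl are the 2 genes whose groups do not overlap, KO3 overlaps the WT libraries for C3, and WT6 stands far above the rest for Cfd.

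The acute-phase genes, liver and epithelial genes that rise in inflammation, are a group to which C3 is often assigned. Of 14 listed, 11 were tested, and 10 had a positive fold change, as did 48.0% of all genes, with a median of 0.33. Their summed level overlapped between genotypes, at 1065, 1145 and 1035 CPM in KO and 833, 992, 1136 and 968 CPM in WT. An unadjusted p under 0.05 by edgeR was found for 3, beside 2.87% of all genes, with 0 called. Of these 3, Lcn2 and Orm2 had positive fold changes and Hp, for haptoglobin, a negative one (log2 fold change -0.28). Lipocalin 2 (Lcn2), an iron-sequestering protein of airway epithelium, had 225, 334 and 192 CPM in KO libraries, against 80.7, 136, 184 and 60.1 CPM in WT libraries. Every KO library lay above every WT library for Lcn2, as was so for 2.11% of all genes, though KO5 and WT4 were close. KO5 and WT6 were the highest of their groups for C3 and the lowest for Lcn2. The other libraries stood in the same order for both genes, rising from WT2 through WT3, WT4 and KO3 to KO4. The part of this group in the C3 values was not tested.

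Of the alternative pathway factors, the fold change of Cfd rested on a single library. Cfd encodes factor D, or adipsin, the protease that cleaves factor B and a product of fat cells. It had 7.30, 6.11 and 16.4 CPM in KO libraries, against 8.98, 6.00, 12.8 and 55.9 CPM in WT libraries. WT6 lay above every other library and KO5 was next, and the log2 fold change of -1.07 ± 0.94 (unadjusted p = 0.30 by edgeR) became 0.10 without WT6. Of the 10 fat cell markers, all detected, 8 were also highest in WT6, the exceptions being Lipe and Lep, both highest in WT4. Their summed level was 69.2, 62.4 and 90.4 CPM in KO and 70.9, 73.0, 91.3 and 203 CPM in WT. Adiponectin (Adipoq), made by fat cells, had 0.879, 0.827 and 2.97 CPM in KO and 1.21, 0.383, 2.07 and 13.5 CPM in WT. The part of fat tissue in the Cfd values was not tested.

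Properdin (Cfp), which stabilises the alternative convertase, averaged 13.5 ± 4.56 CPM in KO and 11.4 ± 1.26 CPM in WT (SD, n = 3 and 4). KO5 was the highest library, and the log2 fold change of 0.24 ± 0.20 became -0.07 without it. Cfb, for factor B, had 6, 5 and 10 counts in KO libraries and 3, 4, 7 and 3 counts in WT libraries and did not pass the filter. Its exons overlap those of Gm20547 on the same strand over 79.5% of their bases. No source used here says whether reads over these shared exons were counted for either gene, and the part of the overlap in the low level was not tested.

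The terminal components were led by Hc, the gene for C5, which alveolar type 2 cells are known to express in the mouse. Hc had 897, 905 and 656 CPM in KO libraries, against 744, 935, 906 and 748 CPM in WT libraries. KO5 was the lowest library, the groups overlapped, and the log2 fold change was -0.02 ± 0.15 (95% interval -0.35 to 0.30). C7, which anchors the growing membrane attack complex and is made by stromal cells among others, had 262, 230.0 and 285 CPM in KO, against 298, 286, 277 and 354 CPM in WT. KO3 and KO4 lay below every WT library and KO5 lay between WT4 and WT3, and the log2 fold change of -0.23 ± 0.12 (95% interval -0.49 to 0.03) did not pass the test (unadjusted p = 0.0822 by edgeR) and was -0.15 without either KO4 or WT6. C6, which binds C5b before C7 joins, averaged 35.7 ± 2.93 CPM in KO and 35.3 ± 5.17 CPM in WT (SD, n = 3 and 4). C8g, for the gamma chain of C8, had 1.76 to 2.32 CPM in KO and 1.72 to 2.39 CPM in WT.

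**Figure D4:**
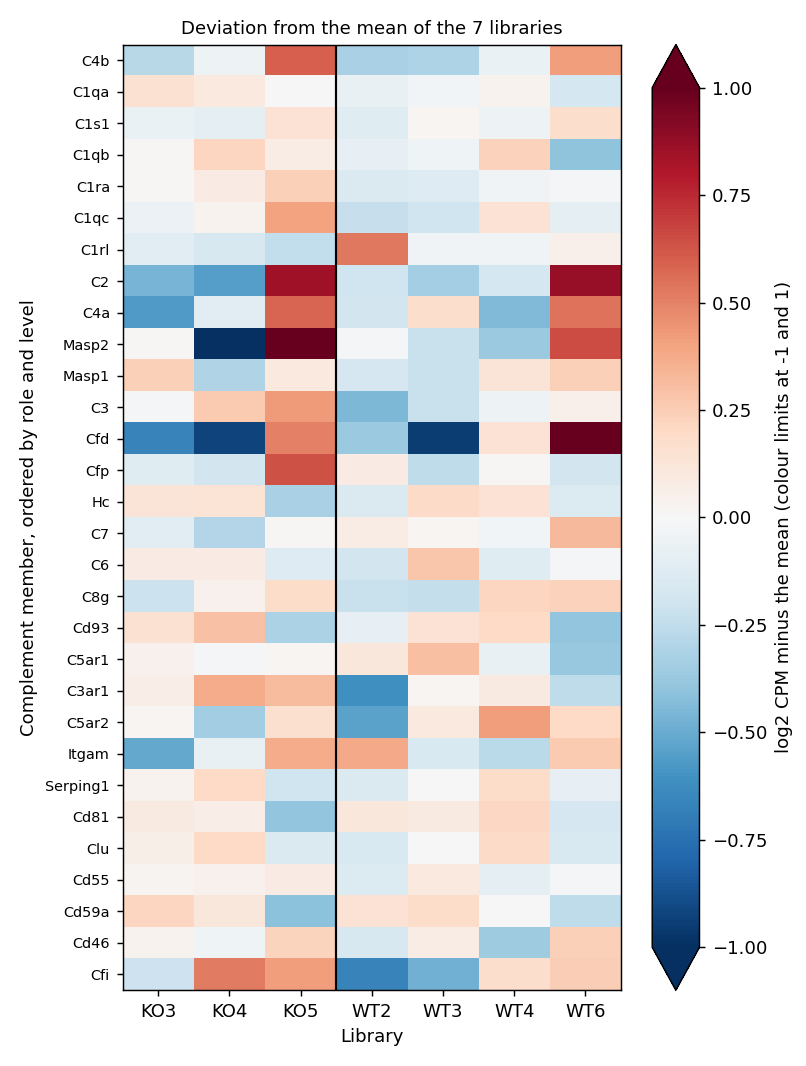
Heat map of the log2 difference of each library from the mean over all 7 libraries for the complement genes kept by the filter, with KO libraries left of WT libraries and colours ending at -1 and 1. KO5 and WT6 are both high for genes such as C4b, C2 and Cfd and both low for Cd93, Cd59a and Cd81.

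Among the receptors, C3ar1, which binds C3a, had 5.61, 6.94 and 6.66 CPM in KO libraries, against 3.49, 5.43, 5.70 and 4.50 CPM in WT libraries. KO4 and KO5 lay above every WT library and KO3 lay between WT3 and WT4. The log2 fold change was 0.42 ± 0.21 (95% interval -0.03 to 0.88), which did not pass the test (unadjusted p = 0.0629 by edgeR). C5ar1, the main receptor for C5a, averaged 8.87 ± 0.202 CPM in KO and 8.87 ± 1.74 CPM in WT (SD, n = 3 and 4). C5ar2, the second C5a receptor, had 1.78 to 2.53 CPM in KO and 1.57 to 3.03 CPM in WT. The log2 fold changes were -0.00 ± 0.18 for C5ar1 (95% interval -0.39 to 0.39) and -0.12 ± 0.28 for C5ar2 (-0.74 to 0.49). Both intervals overlapped that of C3ar1, and no difference between the receptors was tested.

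Cd93, a surface protein of endothelial and myeloid cells first described as a C1q receptor, was the highest complement gene per length. It had 1495, 1647 and 1078 CPM in KO libraries, against 1271, 1489, 1543 and 1023 CPM in WT libraries. KO5 and WT6 were the lowest libraries, and the log2 fold change was 0.08 ± 0.18 (95% interval -0.31 to 0.47). Itgam, the alpha chain of complement receptor 3, lay at 0.471 CPM per kb in KO and 0.507 in WT, while its beta chain partner Itgb2 lay at 23.6 and 22.6 CPM per kb. Of the exonic bases of Itgam, 68.7% also lie in exons of the annotated gene Gm49368, which had 0 counts in 6 libraries and 2 counts in WT2, and the part of this overlap in the Itgam level was not tested. Vsig4, a macrophage receptor for C3b, had 6, 6 and 5 counts in KO and 0, 1, 5 and 9 counts in WT and did not pass the filter.

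None of the 7 regulators passed the test, and 5 had a positive and 2 a negative fold change around a median of 0.06. Serping1, the C1 inhibitor that blocks C1r, C1s and the lectin proteases, had 318, 357 and 271 CPM in KO libraries, against 282, 312, 353 and 293 CPM in WT libraries. The groups overlapped over most of their range, and the log2 fold change was 0.02 ± 0.12 (95% interval -0.25 to 0.29). Factor I (Cfi), which cuts C3b and C4b, had 1.08, 1.78 and 1.67 CPM in KO, against 0.783, 0.894, 1.41 and 1.48 CPM in WT. KO4 and KO5 lay above every WT library, at levels where the interval ran from -0.34 to 1.17 around a log2 fold change of 0.42 (unadjusted p = 0.253 by edgeR). That value was 0.27 without either KO4 or WT2. The surface regulators Cd55, which speeds the decay of convertases, and Cd46, a cofactor of factor I, had log2 fold changes of 0.09 ± 0.10 and 0.11 ± 0.15. Clusterin (Clu) and Cd59a, which block the membrane attack complex, had 0.06 ± 0.12 and -0.03 ± 0.16, and Cd81, a partner of complement receptor 2 on B cells, had -0.13 ± 0.14.

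KO5 and WT6 stood together for some complement genes, about as often as for all genes. They were the 2 highest of the 7 libraries for 7 of the 30 complement genes (23.3%), namely C1s1, C2, C4a, C4b, Cfd, Cd46 and Masp2, as for 16.7% of all genes. They were the 2 lowest for 3 of the 30 (10%), namely Cd59a, Cd93 and Cd81, as for 16.9% of all genes. For Cfp they parted, with KO5 the highest library at 18.8 CPM and WT6 at 10.6 CPM. Exons on the opposite strand, those of A330023F24Rik among them, overlap 14.2% of the exonic bases of Cd46. KO5 and WT6 were also the 2 highest libraries for A330023F24Rik (97.5 and 102 CPM) and for Tardbp, which overlaps Masp2 (155 and 149 CPM). The part of these overlaps in the Cd46 and Masp2 values was not tested. Of 10 mesothelial markers, all detected, 8 had KO5 and WT6 as their 2 highest libraries, the exceptions being Krt19 and Upk1b. The summed level of the 10 was 282, 324 and 401 CPM in KO and 234, 338, 321 and 422 CPM in WT. Krt19, a part of that sum, had 153, 148 and 88.6 CPM in KO and 88.8, 155, 177 and 94.0 CPM in WT. The summed level of the 10 lung markers was lowest in KO5 and WT6. It was 32627, 30117 and 19898 CPM in KO and 27329, 32506, 32666 and 23081 CPM in WT. KO5 and WT6 were the 2 lowest libraries for 5 of the 10. The part of either in the complement values was not tested.

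**Figure D5:**
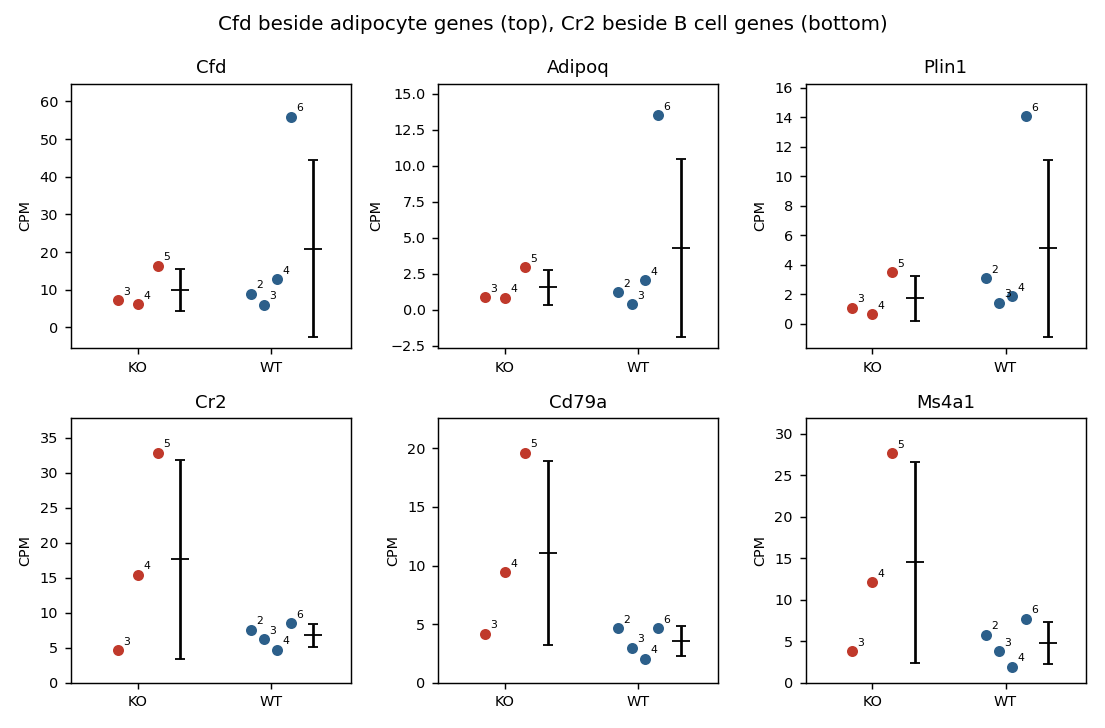
Normalised level (CPM, linear axes) of Cfd beside the fat cell genes Adipoq and Plin1 (top) and of Cr2 beside the B cell genes Cd79a and Ms4a1 (bottom); numbered points are libraries, KO left of WT, and bars are group means with SD (n = 3 and 4). WT6 is the highest library for the top genes (55.9 CPM for Cfd) and KO5 for the bottom genes (32.9 CPM for Cr2).

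A further list of 32 complement genes gave 23 that were counted and 16 that passed the filter. Fold changes were positive in 11 and negative in 5 of the 16, with a median of 0.04, beside 48.0% positive over all genes. An unadjusted p under 0.05 by edgeR was found for 2 of the 16, beside 2.87% of all genes, and 0 were called, beside 0.0353%. Cr2, the C3d receptor of B cells and follicular dendritic cells, had 4.66, 15.5 and 32.9 CPM in KO libraries, against 7.59, 6.26, 4.74 and 8.51 CPM in WT libraries. KO4 and KO5 lay above every WT library, and KO3 lay close to WT4, the lowest WT library (69 counts in KO3 and 64 in WT4). The log2 fold change of 1.38 ± 0.58 had an unadjusted p = 0.0478 and an adjusted p = 0.9998 by edgeR. It was 0.58 without KO5 (unadjusted p = 0.229) and 1.83 without KO3 (adjusted p = 0.0554, the lowest of its alternatives). The B cell genes Cd79a, at 4.19, 9.42 and 19.6 CPM in KO and 4.64, 3.0, 2.07 and 4.64 CPM in WT, and Ms4a1, at 3.78, 12.1 and 27.7 CPM in KO and 5.78, 3.83, 1.92 and 7.74 CPM in WT, also had KO5 and KO4 as their 2 highest libraries. All 12 listed B cell and plasma cell genes, Cr2 itself among them, were detected. Their summed level was 353, 938 and 2092 CPM in KO and 126 to 193 CPM in WT. Igha (122, 293 and 894 CPM) and Igkc (133, 438 and 570 CPM) held much of the sum in KO. KO3 thus lay above every WT library for the sum, while for Cr2 it lay close to the lowest of them. The part of these cells in the Cr2 values was not tested.

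Csmd1, a large membrane protein with complement control domains, had 6.62, 7.38 and 12.2 CPM in KO libraries, against 5.36, 6.38, 5.48 and 6.47 CPM in WT libraries. Every KO library lay above every WT library, as was so for 2.11% of all genes. The log2 fold change was 0.56 ± 0.22 (unadjusted p = 0.0268, adjusted p = 0.9998 by edgeR). It was 0.25 without KO5 (unadjusted p = 0.236). Among the highest by CPM, Colec12, a scavenger receptor, had 176 to 183 CPM in KO and 155 to 179 CPM in WT, and Cr1l, a rodent surface regulator of C3, had 94.1 to 108 CPM in KO and 93.0 to 102 CPM in WT. The integrin chains Itgb2 and Itgax had 66.3 to 75.2 and 61.8 to 69.3 CPM in KO, against 67.5 to 70.1 and 60.8 to 63.6 CPM in WT.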

How the data were processed

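Lung RNA was measured in 3 Scgb3a2 knockout and 4 wild type libraries. The authors deposited whole-number counts per gene, not normalized. STAR, DESeq2 and mm10 are named, per the submitters' processing notes, without roles or versions. Which program counted reads, with which annotation and strand setting, no source used here states. From these counts, edgeR 4.0.16 in R 4.3.3 (TMM scaling, filterByExpr, robust quasi-likelihood test, genotype alone) was fitted to all genes, with Benjamini-Hochberg adjustment over the 19832 kept and calls at an adjusted p under 0.05. Standard errors and 95% intervals come from the fold change and its F statistic. The fit was tested on simulated data.

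Alternatives were DESeq2 1.42.0, RLE size factors, library totals alone, no low-count filter, a non-robust fit, each library left out, a replicate block, and KO5 and WT6 left out together or given a term. Exonic lengths, overlaps and transcripts come from GENCODE M21 (GRCm38), promoters from RefSeq (GRCm38.p6). C1qa has no promoter shown.

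The genes and lists were chosen with earlier results of these data known. Every library's value was given for genes with an unadjusted p under 0.05 or groups that did not overlap, the 8 smallest p, the highest per-length level of each role, and genes with an absolute log2 fold change of at least 0.3 that turned direction when a library was left out. Genes below the filter were given as counts. Of the other complement genes, those with an unadjusted p under 0.05 and the 5 highest by mean CPM were named, except 1 that is not reported here. No test was made over a list. Replicate errors cover the spread between libraries, and the 3-count floor covers counting error only.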

Additional observations from a re-analysis of the deposited data

Results flagged for a closer look

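In 3 of the 32 complement genes counted, a WT library stood so far from the other 3 that its gap passed Dixon's 95% critical value for 4 samples. Chance gives this in about 1 in 20 groups, and the 3 KO libraries were too few to examine. C1rl had 8.38 CPM in WT2, against 5.68 to 6.05 CPM in the other WT libraries (gap 0.864 of the range). C2 had 4.43 CPM in WT6, against 1.92 to 2.15 CPM in the others (0.908). Cfd had 55.9 CPM in WT6, against 6.00 to 12.8 CPM in the others (0.864). Without WT2 the log2 fold change of C1rl was -0.16.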

How the results depend on the processing

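The number of complement genes called was 0 under all 15 alternatives, as was that of the other complement genes, the median log2 fold change of the complement genes stayed between 0.0075 and 0.09, and Scgb3a2 was called under each. The number of all genes called, 7, was 56 with DESeq2, 13 without the robust fit, 14 without KO5 and WT6, 29 with a term for them, and 3 to 41 when each library was left out, 41 without KO3 and 3 without WT2, WT3 or WT4. With a replicate block it was 140. In that fit KO5, WT2 and WT6 each stood alone in a block and added nothing to the genotype difference. Its fold changes rest on KO3 and WT3, and on KO4 and WT4, with little left to estimate the spread. These pairs share only a number in the titles, and their deviations correlated at 0.238 and 0.202. Of 30 complement genes, 11 kept their direction under every alternative, and 60 of 448 pairs of gene and alternative were reversed, of genes that were not called; the cause was not tested. With library totals alone C1s1 was 0.00067 and C5ar1 0.017. Under the replicate block C8g was -0.078, Cfp -0.029, Cd59a 0.071 and Masp2 -0.15, and, with no change of direction, C1rl was -0.099, C1qb 0.015, C1qc 0.014, C4b 0.023, C3ar1 0.17, Cfd -0.43, Cr2 0.71 and Csmd1 0.24. Without KO5 and WT6, C8g was -0.00086, Hc 0.067, Cfp -0.10, Cd59a 0.054 and Masp2 -0.25. With a term for them C5ar1 was 0.028, C8g -0.016 and Masp2 -0.0035. Leaving out each library gave ranges of -0.089 to 0.046 for C1s1, -0.62 to 0.32 for C2, -0.38 to 0.20 for C4a, -0.12 to 0.37 for C4b, -0.11 to 0.11 for C5ar1, -0.29 to 0.0097 for C5ar2, -0.043 to 0.12 for C6, -0.081 to 0.10 for C8g, -0.15 to 0.14 for Cd59a, -0.22 to 0.015 for Cd81, -0.051 to 0.24 for Cd93, -1.63 to 0.10 for Cfd, -0.067 to 0.38 for Cfp, -0.024 to 0.15 for Clu, -0.10 to 0.12 for Hc, -0.35 to 0.076 for Itgam, -0.097 to 0.17 for Masp1, -0.49 to 0.53 for Masp2, -0.076 to 0.13 for Serping1 and -0.056 to 0.055 for Cr1l. Masp2 did not pass the filter without WT2 or WT3. Cfb and Vsig4 did not pass the filter of the main fit, while DESeq2 and the fit with no low-count filter included them.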
